A study of Mus musculus with 4 samples.

Results

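The genes described here make, move, attach, modify and remove sialic acid, an acidic sugar that caps the glycans of secreted and cell surface proteins and lipids, together with the fucosyltransferases, which attach a second kind of capping sugar. They were measured in terminal end buds, the swollen ends from which mouse mammary ducts grow out at puberty. Members were selected by gene symbol, and where several probe sets were annotated to 1 gene, the probe set was chosen by the highest mean over the 4 arrays, a measure that does not use genotype. The rule gave 40 genes with 43 probe sets, out of 19938 genes with a probe set of their own. The group was put together with earlier results of these arrays known, among them the low Cmah signal of the knockout, so the calls below describe these arrays and give no independent support for the choice of genes.

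Both groups were female C57/BL6 mice, and the RNA of several littermates was combined on each array. Control pools came from 2 mice per array and knockout pools from 3 mice per array, so that pool size and genotype cannot be told apart. Knockout mice had the genotype Ovol2flox/-;K14-Cre, with 1 floxed and 1 null allele of Ovol2, a zinc finger transcription factor that represses the epithelial-mesenchymal transition. The K14 (keratin) promoter expresses Cre recombinase in the basal layer of epithelia, so the floxed allele is lost in cells with that history, while the null allele is present in every cell. Controls are given as Ovol2flox/+ in the sample characteristics, while the protocol also allows controls that carry K14-Cre. An age of 4.5 weeks stands in the sample labels and 24 to 25 days in the series text. There were 2 arrays per group, called biological replicates in the labels.

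As background, sialic acid is made in the cytosol, activated to its nucleotide form in the nucleus, carried into the Golgi apparatus and attached there by sialyltransferases. These enzymes are grouped by the bond that they make: St3gal enzymes join sialic acid to galactose at carbon 3, St6gal enzymes to galactose at carbon 6, St6galnac enzymes to N-acetylgalactosamine at carbon 6, and St8sia enzymes to another sialic acid at carbon 8. Sialylated and fucosylated glycans are bound by selectins, galectins and siglecs, and mammary epithelium displays them on mucins and integrins.

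Values are log2(signal + 16) after quantile normalization, called log2 values below, and a difference is the knockout mean minus the control mean on that scale. Array medians of the deposited linear signal lay between 252 and 272. Genes with a mean log2 value under 7.97 over the 4 arrays were not tested, because no detection calls were used and dim signals could not be told from background. Of the luminal and the basal epithelial markers on the array, 9 of 9 in each list passed this level. The luminal keratin gene Krt8 read 13.57, 13.62, 13.63 and 13.65 in control replicates 1 and 2 and knockout replicates 1 and 2, in that order, which is kept throughout. The targeted gene Ovol2 read 8.05, 8.31, 7.85 and 7.73. Both knockout arrays lay below both controls, as in 29.9% of all tested genes. The difference of -0.39 ± 0.16 (SE, n = 2 arrays per group) was not called (limma, adjusted p = 0.17). The Ovol2 knockout mean of 7.79 lay under the filter level, so the gene was tested only through its control signal. Where its probes lie relative to the deleted part is not given in the sources used here, so this value does not measure the deletion.

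Of the 40 genes, 24 passed the filter and 16 did not. St3gal1 rose in the knockout, and Cmah, St8sia6 and St6gal1 fell. These 4 calls are 16.7% of the 24, beside 10.7% of all 11963 tested genes that passed an adjusted p of 0.05 (6.29% higher and 4.45% lower). Nothing particular to the group is read from these shares. Both knockout arrays lay above both controls for 11 of the 24 and below both for 4, against 26.4% and 29.9% of all tested genes. The median difference of the 24 was 0.085, and that of all tested genes was -0.022. The count of members that rose was 3 without knockout replicate 1, and with a variance prior that has no mean-variance trend 0 rose and 1, Cmah, fell.

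**Figure D1:**
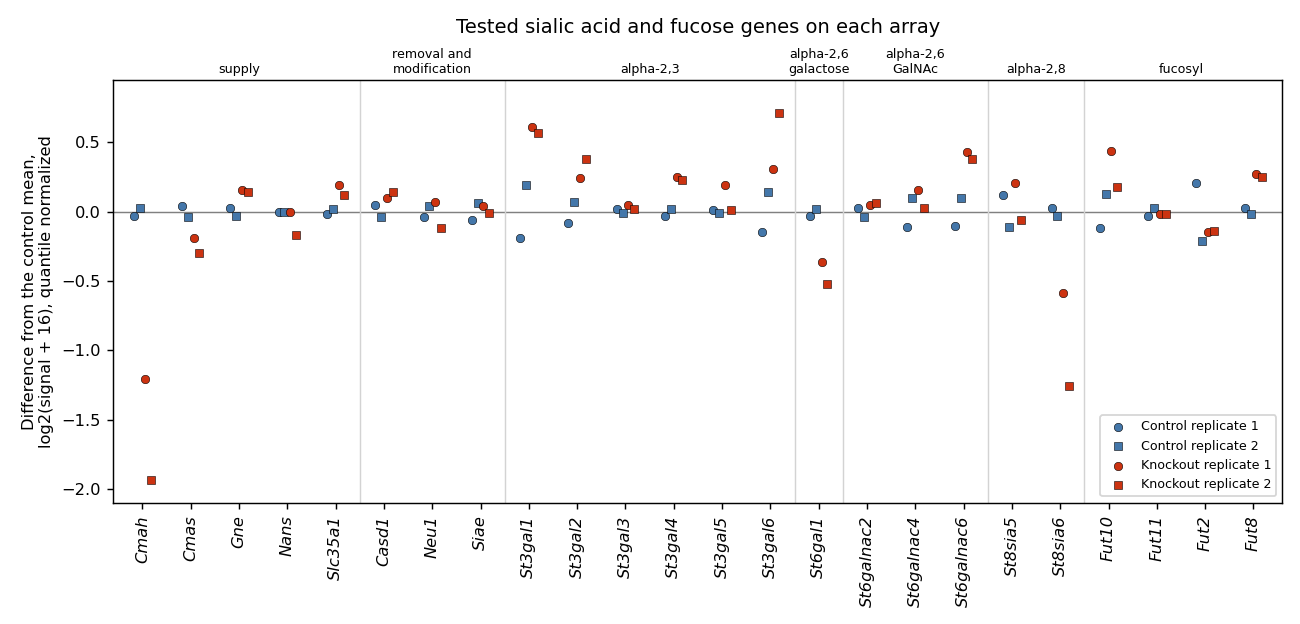
Log2 value minus the control mean of the same gene (vertical axis) for the 24 tested members on each of the 4 arrays, in blocks by role; blue marks are control arrays, red marks knockout arrays, circles replicate 1 and squares replicate 2. The knockout marks of Cmah, St8sia6 and St6gal1 lie well below the control marks, with knockout replicate 2 the lower in each, and the 2 knockout marks of St3gal1 lie above.

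St3gal1, which adds sialic acid to galactose on the common core of O-linked glycans and so ends their growth, was the member that rose. Its controls read 10.28 and 10.66, its knockouts 11.08 and 11.04. The groups did not overlap, and control replicate 1 lay apart from replicate 2. The difference was 0.59 ± 0.10, or 1.51-fold (adjusted p = 0.00754). Leaving out each array in turn gave differences from 0.40 to 0.78, and the call was lost when the variance prior had no trend (adjusted p = 0.0801). A second, dimmer probe set of St3gal1, named here after its values were seen, read 8.32, 8.11, 8.22 and 8.37, a difference of 0.09 with overlapping groups. With the mean over both probe sets the difference was 0.34 (adjusted p = 0.028).

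None of the other members of the St3gal family passed the threshold. St3gal6, which acts on lactosamine ends of glycans, read 7.86, 8.15, 8.32 and 8.72, a difference of 0.51 ± 0.17 (adjusted p = 0.092). Its control replicate 1 lay under the filter level, and its control mean of 8.01 just above it. St3gal2, which like St3gal1 acts on O-glycan cores and on gangliosides, read 8.91, 9.06, 9.23 and 9.37 (difference 0.32 ± 0.10, adjusted p = 0.0761). St3gal4, which with St3gal6 contributes to selectin ligands, read 9.72, 9.77, 10.00 and 9.98 (difference 0.24 ± 0.07, adjusted p = 0.0566). In these 3 genes both knockout arrays lay above both controls, as in 26.4% of all tested genes. For St3gal5, which makes the ganglioside that is the root of the complex gangliosides, the difference was 0.10 with a 95% interval from -0.14 to 0.33. For St3gal3, which acts on N-linked glycans, it was 0.03 with an interval from -0.13 to 0.19, and the groups overlapped in both genes. All 6 St3gal genes were tested and 1 was called. Of the differences, 6 of 6 were above 0, with a median of 0.281, beside -0.022 for all tested genes. Nothing particular to the family is read from these counts. The summed linear signal of the 6 as deposited ran from 3984 to 4574 on the control arrays and from 5421 to 5602 on the knockout arrays. The brightest gene in this sum was St3gal1, whose second probe set differed by only 0.09.

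St6gal1, the main enzyme that adds sialic acid to galactose at carbon 6 on N-linked glycans, fell. Control arrays read 9.76 and 9.81 and knockout arrays 9.43 and 9.27, without overlap and with the controls close together. The difference was -0.44 ± 0.09, a 1.35-fold lower signal (adjusted p = 0.0119). Of the 4 calls, this one was lost under the most alternatives, though by small margins. The adjusted p was 0.0536 with median centring of the arrays and 0.0662 with no trend. The call was also lost without control replicate 1 (difference -0.47) and without control replicate 2 (difference -0.41). The difference itself stayed between -0.51 and -0.36 over the 13 alternatives. Its relative St6gal2 lay under the filter at 7.13, 7.11, 6.99 and 7.04 and was not tested.

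The St6galnac genes, which sialylate the N-acetylgalactosamine of O-glycans and gangliosides, gave no call. St6galnac2, a mucin-type enzyme, read 11.06, 10.99, 11.08 and 11.09 (difference 0.06, 95% interval -0.07 to 0.18). St6galnac6, which acts on gangliosides and related glycolipids, read 7.93, 8.13, 8.46 and 8.41. Its groups did not overlap, and its difference of 0.41 ± 0.14 did not pass (adjusted p = 0.101), with control replicate 1 again under the filter level. St6galnac4 differed by 0.10 ± 0.14 with overlapping groups. St6galnac1, which makes the short sialyl-Tn antigen, St6galnac3 and St6galnac5 lay under the filter, with differences between 0.01 and 0.23. The control arrays of St6galnac1 read 7.73 and 6.73, wider apart than its group means.

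St8sia6, which adds a second sialic acid mostly on O-glycans, fell by more than St6gal1. Signals of 10.65 and 10.59 in the controls stood against 10.03 and 9.36 in the knockouts. The controls lay close together, while the knockouts differed from each other by more than knockout replicate 1 differed from the controls. The difference was -0.92 ± 0.17, a 1.90-fold lower signal (adjusted p = 0.00866). Leaving out knockout replicate 2 gave -0.59, and leaving out knockout replicate 1 gave -1.26. The call was lost with no trend (adjusted p = 0.086) and with a robust prior (adjusted p = 0.249), which downweights the pull of variable genes on the prior. St8sia5, a ganglioside enzyme, was the other tested member of the family, just above the filter level with a mean of 7.98 and a control mean of 7.94 under it, and its difference of 0.07 ± 0.17 came with overlapping groups. St8sia1, which makes the ganglioside GD3, St8sia3, and the polysialic acid enzymes St8sia2 and St8sia4 were under the filter, with differences from -0.19 to 0.20. Ncam1, the cell adhesion molecule that is the main carrier of polysialic acid, rose in the same arrays from 8.84 and 8.78 to 9.43 and 9.60 (difference 0.70 ± 0.10, adjusted p = 0.00263).

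Among the supply genes the hydroxylase gene Cmah fell. Its enzyme turns activated N-acetylneuraminic acid into N-glycolylneuraminic acid, a second sialic acid that mice make and humans do not. Cmah read 9.41, 9.47, 8.23 and 7.50. Both knockout arrays lay below both controls, and knockout replicate 2 lay below the filter level. The knockout mean of 7.87 also lay below it, so Cmah was tested only through its control signal and the fold may understate the change. The difference was -1.58 ± 0.20, a 2.99-fold lower signal (adjusted p = 0.00175). It stayed between -1.95 and -1.21 and was called in 12 of the 12 alternatives that tested it, with adjusted p up to 0.048. The filter at the 60th percentile left it untested.

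The other supply genes gave no call. Gne, the first and rate-limiting enzyme of sialic acid synthesis, read 10.17, 10.11, 10.30 and 10.28 (difference 0.15 ± 0.07, adjusted p = 0.186). Nans, which condenses the sugar with phosphoenolpyruvate, read 10.39, 10.39, 10.39 and 10.22, with a 95% interval from -0.24 to 0.08. Cmas, which activates sialic acid to its nucleotide form, read 10.11, 10.03, 9.88 and 9.77. Its groups did not overlap, at a difference of -0.24 ± 0.07 (adjusted p = 0.0718). Slc35a1, the transporter that brings the nucleotide sugar into the Golgi apparatus, differed by 0.16 ± 0.08 (adjusted p = 0.274). Nanp, the phosphatase of the pathway, was under the filter, and 2 probe sets annotated with the same accessions both gave -0.11.

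The promoter windows of the 3 genes that fell are shown to compare their base composition, since the genes moved in the same direction. The windows come from RefSeq (GRCm38.p6) and run from 250 bases before to 50 bases after an annotated start, 5′ to 3′ on the strand of the gene, with each CG dinucleotide in capitals. Cmah lies on the plus strand at chr13:24327154-24327453 (the first of 2 starts), St6gal1 on the plus strand at chr16:23224490-23224789 (the first of 3 starts), and St8sia6 on the minus strand at chr2:13793471-13793770 (1 start).
Cmah: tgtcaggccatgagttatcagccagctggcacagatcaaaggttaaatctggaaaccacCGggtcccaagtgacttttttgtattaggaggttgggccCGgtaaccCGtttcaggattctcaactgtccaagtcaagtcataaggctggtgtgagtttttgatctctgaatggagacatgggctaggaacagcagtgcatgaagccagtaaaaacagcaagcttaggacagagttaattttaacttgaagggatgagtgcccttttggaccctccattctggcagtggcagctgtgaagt
St6gal1: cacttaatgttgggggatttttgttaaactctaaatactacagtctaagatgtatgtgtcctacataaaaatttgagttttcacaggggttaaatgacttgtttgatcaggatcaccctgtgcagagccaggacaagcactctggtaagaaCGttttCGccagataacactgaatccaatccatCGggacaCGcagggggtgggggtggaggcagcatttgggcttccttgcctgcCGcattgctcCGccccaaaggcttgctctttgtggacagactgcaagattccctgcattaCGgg
St8sia6: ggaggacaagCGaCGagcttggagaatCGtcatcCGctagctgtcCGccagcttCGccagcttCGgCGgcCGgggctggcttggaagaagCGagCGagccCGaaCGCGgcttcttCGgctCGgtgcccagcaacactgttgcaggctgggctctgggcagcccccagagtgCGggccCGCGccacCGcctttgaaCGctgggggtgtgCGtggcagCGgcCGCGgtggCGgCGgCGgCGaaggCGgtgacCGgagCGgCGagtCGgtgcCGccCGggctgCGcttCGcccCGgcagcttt
The windows differ in composition. That of Cmah has 3 CG dinucleotides and 47.3% G and C, that of St6gal1 has 7 and 48.0%, and that of St8sia6 has 39 and 72.0%. The medians over all 32851 windows in the table are 7 and 52.7%. Which start is used in these cells was not measured.

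Windows were found for 27 of the 40 genes, 39 windows in all, and were searched on both strands for the OVOL core motif CCGTTA and for CACCTG, a form of the E-box that Zeb repressors bind. No window was found for St3gal1, so the promoter of the member that rose was not searched. Neither motif contains the other. CCGTTA was found in 1 of the 39 windows (2.56%), that of the transporter gene Slc35a1 at position 121 counted from the 5′ end, beside 2.76% of all windows. CACCTG was found in 8 of the 39 (20.5%), beside 20.2% of all windows. None of the windows of Cmah, St6gal1 and St8sia6 held either run of letters, other annotated starts included. A match is a description of the letters in these windows only.

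Enzymes that remove or modify sialic acid gave no call. Neu1, the lysosomal sialidase, read 9.51, 9.59, 9.62 and 9.43 (difference -0.02, 95% interval -0.22 to 0.18). Siae, the esterase that takes acetyl groups off sialic acid, read 9.69, 9.81, 9.79 and 9.74 (interval -0.17 to 0.18), and Casd1, the enzyme that adds them, 10.25, 10.16, 10.30 and 10.34 (interval -0.03 to 0.26). The cytosolic sialidase gene Neu2, the membrane sialidase gene Neu3, Neu4 and the lyase gene Npl were under the filter. Their differences ran from -0.12 to 0.37, the highest for Neu2, which read 7.44, 7.53, 7.88 and 7.83.

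No fucosyltransferase passed the threshold. Fut8, which adds the core fucose of N-glycans, read 9.33, 9.28, 9.57 and 9.55, without overlap (difference 0.26 ± 0.08, adjusted p = 0.0749). Fut10 read 7.82, 8.07, 8.38 and 8.12 (difference 0.30 ± 0.16). Its control mean of 7.94 lay under the filter level, so it was tested, and counted among the 11 members without overlap, only through its knockout signal. Fut2, the secretor enzyme that makes H antigen in epithelia, read 9.30, 8.88, 8.94 and 8.95, and control replicate 1 alone set its difference of -0.15, which was 0.07 without that array. Fut11 differed by -0.02 ± 0.07. The Lewis antigen enzymes Fut4, Fut7 and Fut9 were under the filter. Fut9 had the highest difference among the untested fucosyltransferases, at 0.40 (7.54, 7.61, 8.03 and 7.91), and Fut7, an enzyme of selectin ligands, differed by -0.06.

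**Figure D2:**
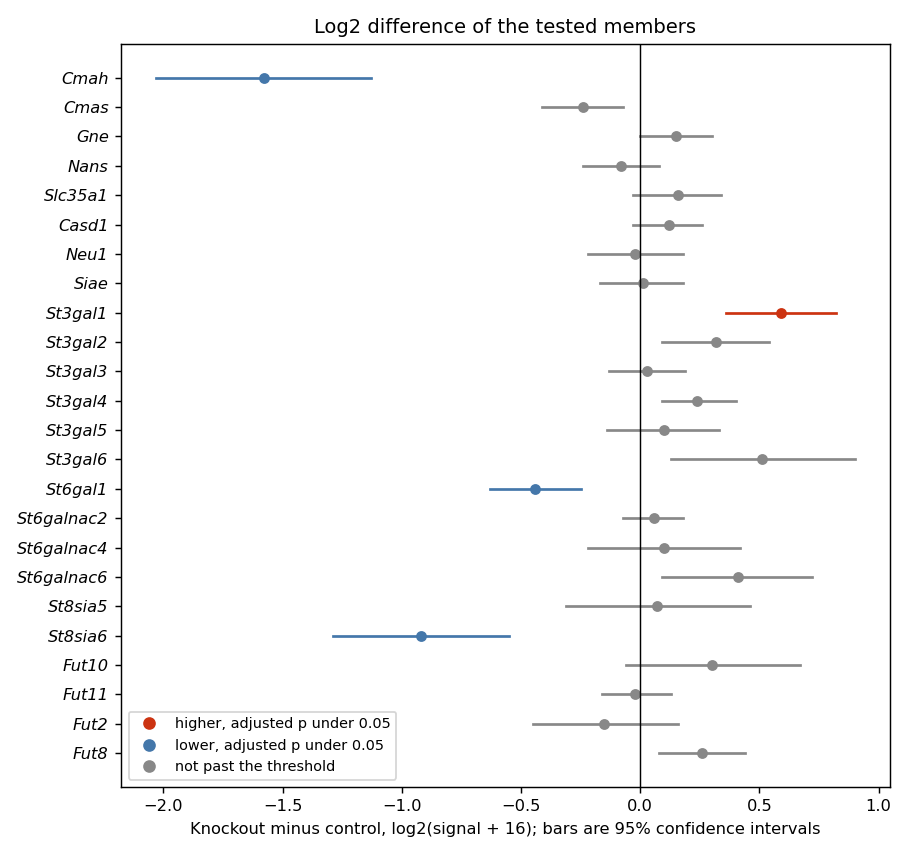
Knockout minus control log2 difference (horizontal axis) of the 24 tested members with 95% confidence intervals from the limma fit, ordered by role as in the plot by array. Red marks St3gal1 (0.59), blue marks Cmah (-1.58), St8sia6 (-0.92) and St6gal1 (-0.44), and grey the 20 members that did not pass the threshold.

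Beyond the members, the genes that feed sugars into the pathway gave no call: 0 of 17 tested genes of precursor sugar synthesis and transport passed in limma, with a median difference of -0.002. At an unadjusted p under 0.05 the count was also 0. In this and the following lists, counts of calls stand beside 10.7% of all 11963 tested genes, 6.29% higher and 4.45% lower. Of 37 tested genes that build or extend glycan cores, 5 rose, 1 fell and 31 did not pass (16.2% called, median -0.016). Galnt15, which belongs to the family that starts O-glycans, rose 2.06-fold (difference 1.04 ± 0.16), though its control replicate 1 lay under the filter level. Gcnt4, a branching enzyme of O-glycans, rose 1.37-fold and B3gnt7, which extends lactosamine chains, 1.26-fold. B4galt6, one of the lactosylceramide synthases at the root of gangliosides, fell by 0.35 ± 0.10 (adjusted p = 0.0451). Calls of Gcnt4 and B3gnt7 were lost without control replicate 1, with median centring and with no trend, and that of B3gnt7 also without control replicate 2. With no trend the Galnt15 call was lost. The B4galt6 call was lost when either control array, or knockout replicate 2, was left out. It was also lost as deposited, with median centring, with no filter and with no trend. Among the lysosomal genes that break glycans down, 9 were tested. Fuca1, the fucosidase, rose 1.23-fold and 8 did not pass, so that 11.1% were called, near the share of all tested genes. The Fuca1 call was lost without control replicate 1, with median centring and with no trend.

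Of 9 tested readers of sialic acid and galactose, 1 rose, 1 fell and 7 did not pass (22.2% called). The galectin gene Lgals1, which fibroblasts express strongly, rose 1.71-fold from 11.24 and 11.36 to 11.96 and 12.20 (difference 0.78 ± 0.08). Lgals9 fell by 0.28 ± 0.07, a call lost without control replicate 1 and without knockout replicate 2. It was also lost with median centring, with no filter, with the filter at the 60th percentile and with no trend. Among 13 tested carriers of sialylated glycans 4 rose, 2 fell and 7 did not pass (46.2% called). The sialomucin genes of vessels Emcn and Cd34 rose 2.03-fold and 1.39-fold, and Ncam1 rose 1.63-fold. With no trend the calls of Emcn and Cd34 were lost and that of Ncam1 was kept. Glycam1, a mucin found in milk and on the high endothelial venules of lymph nodes, fell from a control mean of 11.88 to 9.57 and 5.45 on the knockout arrays, the second of them far under the filter level. Its knockout mean of 7.51 also lay under that level, so Glycam1 was tested only through its control signal. Leaving out knockout replicate 2 moved its difference to -2.31, and leaving out the other knockout array moved it to -6.43. The call was lost with no trend (adjusted p = 0.129) and with the robust prior (adjusted p = 0.37). The other 4 venule markers on the array lay under the filter, with differences from -0.61 to -0.01, and the median over all 5 was -0.196. Cadm1, an adhesion molecule that can carry polysialic acid, fell by 0.35 ± 0.08, a call lost without control replicate 1, with median centring and with no trend.

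Markers of other cells moved in the same arrays, and in these bulk samples fewer cells of a type and less RNA per cell cannot be told apart. Of 12 B and T lymphocyte markers on the array 3 were bright enough to be tested, and 2 fell and 0 rose. The B-cell receptor gene Cd79b read 9.66, 9.02, 7.68 and 7.19 (difference -1.91 ± 0.22, adjusted p = 0.00118), and the homing receptor gene Ccr7 9.34, 9.14, 8.31 and 8.49 (difference -0.84 ± 0.12). Cd79b and Cd3e had knockout means of 7.43 and 7.94, under the filter level, and were tested only through their control signals. The 9 untested markers had differences from -2.05 to -0.13, the lowest for the B-cell gene Ms4a1. The T-cell markers Cd3e, Cd4, Cd8a and Cd3d differed least of the 12, by -0.25, -0.26, -0.24 and -0.13, and Cd3d overlapped between groups. The summed deposited signal of the 12 markers ran from 2770 to 3456 on the control arrays and from 1689 to 1739 on the knockout arrays, and 0 of the 12 were at a signal of 0. St6gal1 and Cmah are also expressed in mouse B cells, as background. The siglec gene Cd22, whose protein binds the glycans that St6gal1 makes, read 8.50, 8.32, 7.93 and 7.99 (difference -0.45 ± 0.14, adjusted p = 0.078). The knockout mean of Cd22, 7.96, lay just under the filter level, so it too was tested only through its control signal. The part of lymphocytes in the lower signals of Cmah, St8sia6 and St6gal1 was not tested.

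Stromal markers moved the other way. All 11 fibroblast markers on the array were tested and 11 rose, with a median difference of 1.282, among them Lum (difference 1.94 ± 0.09) and Pdgfra. Lama2 had a control mean of 7.55, under the filter level, and was tested only through its knockout signal. Their summed deposited signal ran from 11459 to 12212 on the control arrays and from 26266 to 31683 on the knockout arrays. Of 9 endothelial markers 5 rose and 0 fell (median 0.627), with Kdr, Tek and Tie1 at control means under the filter level. The Kdr call was lost without control replicate 1 and with no trend, and that of Cdh5 with no trend and with the robust prior. Of 5 tested adipocyte markers 4 rose and 0 fell (median 0.578), and Plin1 differed by -0.08. With no trend the calls of Fabp4 and Cd36 were lost and that of Lpl was kept. The 3 untested adipocyte markers, Adipoq, Cidec and Lep, had differences from -0.02 to 0.11, and the median over all 8 was 0.273. Among 5 tested macrophage markers 1 rose, Cd14, by 0.34 ± 0.06. The 9 luminal markers had a median of 0.046 with 1 rise, in the progesterone receptor gene Pgr. The 9 basal markers had a median of 0.213 with 4 that rose, Acta2, Cnn1, Myh11 and Oxtr, and 1 that fell, Trp63. Krt5, Krt14, Krt17 and Itga6 were not called. The calls of Cnn1, Myh11 and Oxtr were lost with no trend and with the robust prior. Of 5 nerve markers Ncam1 rose and Ngfr fell. The calls of Cd14, Pgr, Trp63 and Ngfr were lost without control replicate 1, with adjusted p from 0.0512 to 0.0916, and with no trend, and those of Cd14 and Trp63 also with median centring and that of Pgr with the robust prior. The part of stromal cells in the higher signals of St3gal1 and the other St3gal genes was not tested.

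**Figure D3:**
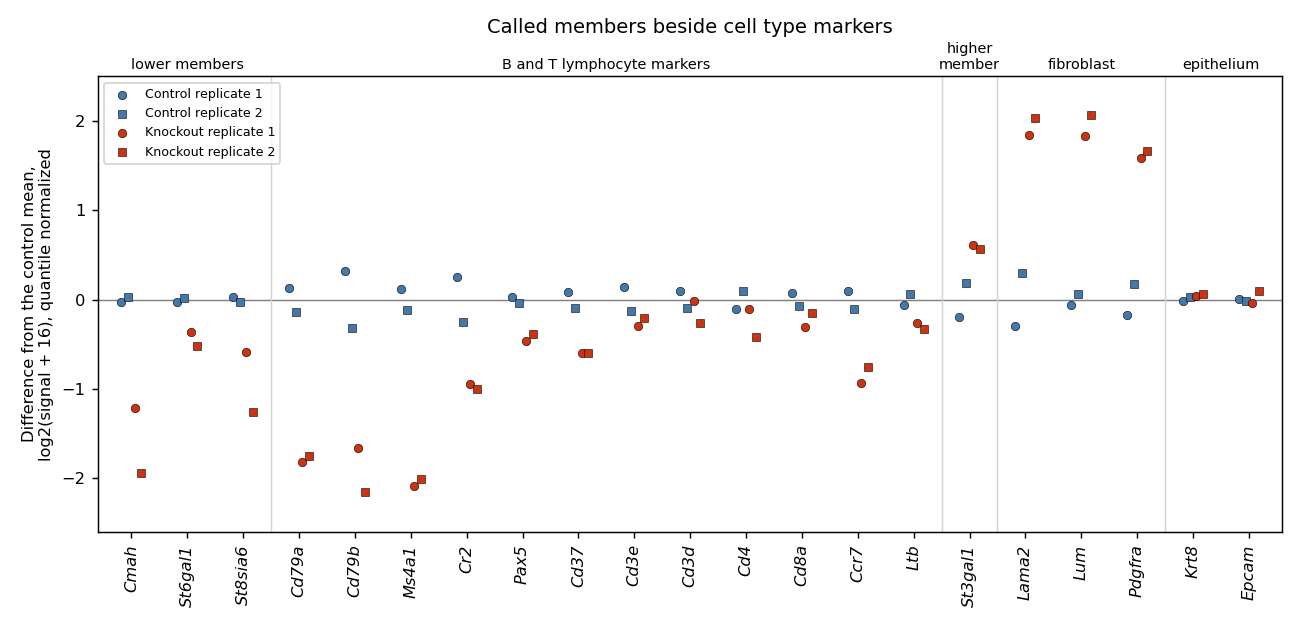
Log2 value minus the control mean (vertical axis) on each array for the 4 called members, the 12 lymphocyte markers on the array, the 3 fibroblast markers with the largest rise and the epithelial genes Krt8 and Epcam; colours and symbols as in the plot by array. Lymphocyte markers lie lower on the knockout arrays, the T-cell genes Cd3e, Cd4, Cd8a and Cd3d by the least and Cd3d with overlap. Fibroblast markers lie higher, while Krt8 (difference 0.05) and Epcam (0.03), both added after their values were seen, stay near 0. They do not stand for all epithelial markers. Among those not plotted, Acta2, Cnn1, Myh11, Oxtr and Pgr rose, Trp63 fell and the others were not called.

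**Figure D4:**
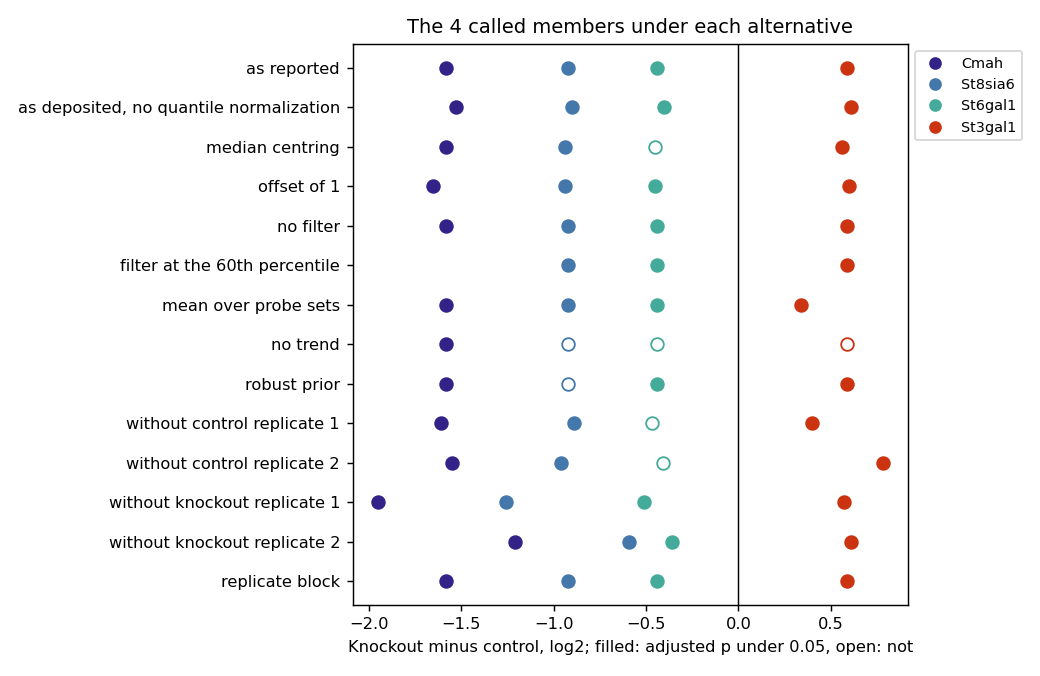
Knockout minus control log2 difference (horizontal axis) of the 4 called members as reported and under each of 13 alternatives (rows); filled marks passed an adjusted p of 0.05 and open marks did not. No mark crosses 0. Cmah has no open mark and is missing from the row for the filter at the 60th percentile, which left it out.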

How the data were processed

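The members and gene lists were chosen with earlier results of these data known. The deposited table held 1 linear signal intensity per probe set and array for 35556 probe sets, summarised by the authors with Affymetrix Expression Console 1.1.1 and PLIER 2.0, per the submitters' processing notes. For background correction, normalization and genome build, the method was not given in the sources used here. A probe annotation supplied with the table gave 21789 probe sets 1 gene symbol, 1621 several and 12146 none, and 21698 of the 21789 were found in RefSeq by Entrez identifier, which changed 0 symbols. An offset of 16 was added, log2 taken and the 4 arrays quantile normalized. The brightest probe set represented a gene. Genes under the 40th percentile of the mean over the 4 arrays (7.97, near a linear signal of 235) were not tested.

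Groups were compared across all 11963 remaining genes with limma 3.58.1 in R 4.3.3 (lmFit, then eBayes with trend set to true), in two-sided tests with Benjamini-Hochberg adjustment over all of them and a threshold of 0.05. Each gene had 2 residual degrees of freedom, to which the prior added 7.58. Values after ± are SEs, and adjusted p-values are from this fit unless an alternative is named. The number of arrays limits the precision, and the median SE over all tested genes was 0.084. An exact permutation test of 2 against 2 arrays cannot reach the threshold. All members were described, those past the threshold on every array. In the other lists up to 3 called genes per direction, those with the largest differences, were eligible to be named. Cd22, Krt8, Epcam, Ms4a1, Tek, Tie1 and the second probe set of St3gal1 were added after their values were seen. So were the other adipocyte, basal and T-cell markers that are named. The fit was tested on simulated data.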

Additional observations from a re-analysis of the deposited data

How the results depend on the processing

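Cmah, St3gal1, St8sia6 and St6gal1 kept their sign under each alternative that tested them. The count of members that rose, 1 as reported, was 4 in the values as deposited without quantile normalization, 2 with median centring, 2 with the filter at the 60th percentile, 0 with no trend, 2 with a robust prior and 1 to 3 when each array was left out. The count that fell, 3 as reported, was 2 with median centring (St6gal1 lost), 2 with the filter at the 60th percentile (Cmah untested), 1 with no trend and 2 to 4 when each array was left out. Among the members, St3gal2, St3gal4, St3gal6, St6galnac6 and Cmas passed under 1 or 3 alternatives each, the crossed block not counted. The median difference of the tested members lay within 0.079, the SD between replicates, of its reported value throughout. In the fits as deposited, with median centring, with a replicate block and without either knockout array, the prior had infinite degrees of freedom, so they take the variance from the trend alone. Leaving out an array leaves 1 in its group, assumed to vary like the other group. Same-numbered arrays had correlated deviations of -0.20 across genes, so the numbers are not taken as pairs. With the replicate block 3 members rose and 4 fell, and with the crossed replicate block, chosen after seeing the data, 2 rose and 3 fell. Over all genes, 1016 rose and 510 fell as deposited, 480 and 273 with median centring, 143 and 45 with no trend, 320 and 156 without control replicate 1, 1168 and 1179 without knockout replicate 1, and 1170 and 1076 with the replicate block, against 753 and 532. The share of calls that were higher was 66.6% as deposited and 58.6% as reported. Members near 0 turned sign: Fut11 was 0.01 and Neu1 0.02 as deposited, Siae -0.02 and St3gal3 0.00 with median centring, and Fut11 0.09 with the mean over probe sets. With arrays left out the ranges were -0.05 to 0.02 for Fut11, -0.36 to 0.07 for Fut2, -0.17 to 0.01 for Nans, -0.11 to 0.07 for Neu1, -0.05 to 0.07 for Siae, -0.01 to 0.20 for St6galnac4 and -0.06 to 0.21 for St8sia5. The cause was not tested.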
